A study of Drosophila melanogaster with 2 samples.

Results

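The genes described here are the odorant and gustatory receptor genes of Drosophila melanogaster, 119 protein-coding genes of 13922 on the chromosome arms X, 2L, 2R, 3L, 3R and 4. They were chosen by symbol, with 59 odorant receptor genes (Or and a digit) and 60 gustatory receptor genes (Gr and a digit). No measured value entered this rule, though earlier results of these data were known. Wings of male pupae were taken as 2 biological replicates at 67% of pupal development, 35 to 45 pooled wings each, from the transgenic line D2. Both replicates carry the D2 transgene and no sample without it, of another tissue or of another stage was analysed here, so that receptor genes were compared with other genes and not between conditions. The assay was CUT&RUN for H3K27ac, a histone mark of active regulatory DNA: an antibody brings a nuclease to the marked chromatin, the released fragments are sequenced, and regions rich in them are listed as peaks. The authors made 1 list per replicate.

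Odorant receptors are membrane proteins that form ligand-gated cation channels with the co-receptor Orco in the olfactory neurons of the antenna and maxillary palp. Gustatory receptors are related proteins, many but not all of them of taste neurons, and different ones respond to sugars, bitter compounds, carbon dioxide and pheromones. The anterior margin of the wing carries taste bristles innervated by gustatory neurons. These neurons are few among the epithelial cells of the wing. In a peak list from whole wings, a mark in few cells and a weak mark in many cells cannot be told apart.

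A gene was called reached when a peak overlapped its span, or the 500 bp on either side, by at least 1 bp. A peak was called private to the receptors when it overlapped no such window of a protein-coding gene outside the receptor set. Replicate 1 listed 14425 peaks on the arms and replicate 2 listed 26358. The most frequent background in the caller's values was 13.8 fragments for replicate 1 and 27.1 for replicate 2, and the smallest pileups listed over those backgrounds were 28 and 46 fragments. Replicate 2 listed peaks of lower fold (the authors' enrichment of fragments over local background), with a median of 2.07 against 2.43 in replicate 1. Defining genes of the wing were reached in both replicates in 7 of 7 cases (vg, nub, ap, sd, bs, Dll and rn), against 49.9% of all protein-coding genes and 74.4% of those over 8000 bp. The wing genes had a median span of 23313 bp and the 8 neuronal marker genes one of 30297 bp. Of the neuronal genes, 1 was reached in both, elav, with a top fold of 2.72 in replicate 1 and 2.35 in replicate 2. No peak of elav in one list overlapped a peak in the other, and the highest in replicate 1 also reached the neighbouring gene arg. For nSyb, Syt1, brp, para, fne, onecut and Rdl, no peak was listed in replicate 1. Replicate 2 reached 6 of the 8 neuronal genes. Of 6 sensory bristle markers, Poxn, sv and neur were reached in both replicates, and ac, sc and sens were not. Both replicates reached 2 of 3 glia, 0 of 3 hemocyte, 1 of 3 muscle and 1 of 2 trachea markers. Replicate 2 reached 3 of 3 glia, 3 of 3 hemocyte, 3 of 3 muscle and 2 of 2 trachea markers, against 70.6% of all genes. The part of these cells in the receptor peaks was not tested.

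Few receptor genes carried listed H3K27ac. Both replicates reached 21 of the 119 receptor genes (17.6%), and 49.9% of all protein-coding genes under the same rule. The 21 were 7 of 59 odorant receptor genes (11.9%) and 14 of 60 gustatory receptor genes (23.3%). Replicate 1 reached 22 receptor genes (18.5%, against 52.6% of all genes), and replicate 2 reached 42 (35.3%, against 70.6%). By the list of replicate 2 these were 15 odorant and 27 gustatory receptor genes. No peak lay in the window of 76 receptor genes in either list, namely 44 odorant and 32 gustatory ones. In both replicates and both families the share was below that of all genes. With 1 group of 2 replicates, no test over samples was possible for these shares, and the difference between the families was likewise not tested.

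Receptor genes are short, and short genes of all kinds were reached less often. The median span was 1444 bp for receptor genes and 2163 bp for all protein-coding genes. Among genes of 1300 to 1775 bp, the middle range of receptor lengths, 8 of 59 receptor genes (13.6%) and 42.7% of all genes were reached in both replicates. In the length class ending at 1500 bp, which holds 49 receptor genes, the count was 3 (6.12%), against 38.5% of all genes of that length. Over 2000 and up to 4000 bp it was 6 of 21 (28.6%), against 54.5%. Only Gr28b (7422 bp, the longest) and Gr39a (6953 bp) were longer, and both were reached in both replicates. The shortest receptor gene, Gr89a (1143 bp), expressed in bitter taste neurons, was reached in replicate 2 and not in replicate 1.

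**Figure D1:**
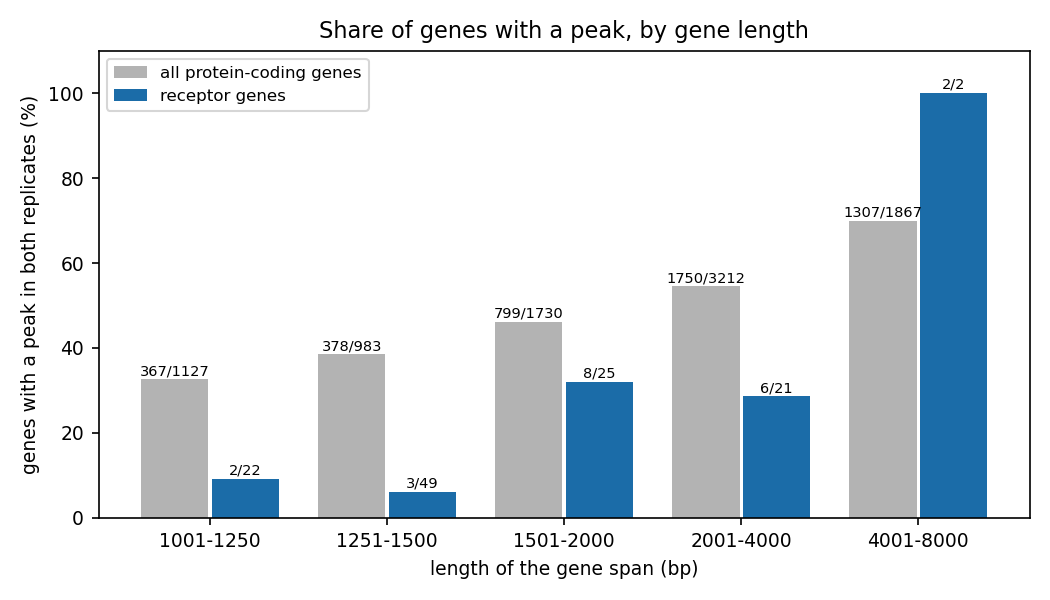
Percentage of genes with a peak in both replicates (y axis) by length of the gene span in bp (x axis), for all protein-coding genes (grey) and receptor genes (blue), with the counts above the bars. The receptor share was lower than that of all genes in each of the 4 classes plotted up to 4000 bp, and both receptor genes over 4000 bp were reached.

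Genes with a close neighbour were also reached more often. The windows of 59 receptor genes met the window of a gene outside the receptor set, and 14 of these were reached in both replicates (23.7%, against 52.7% of all genes with a neighbour). Of the 60 receptor genes without such a neighbour, 7 were reached (11.7%, against 30.4% of all genes without a neighbour). The rule differed between the sets. For genes outside the receptor set any protein-coding neighbour counted, and for receptor genes only one outside the set. With receptor neighbours counted too, 90 receptor genes had a neighbour, so that many of the 60 lay beside another receptor gene. The same limit holds for the genes of 1300 to 1775 bp that follow. Among genes of 1300 to 1775 bp without a neighbour, 1 of 28 receptor genes was reached, Gr93a, against 21.2% of all such genes. With a neighbour and of that length, 7 of 31 were reached (22.6%, against 45.5%).

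The listed peaks also covered little receptor sequence. In replicate 1, peaks covered 2900 of 199378 bp of receptor gene spans (1.45%), against 4.52% of all gene spans and 7.98% of the spans of genes of 1300 to 1775 bp. In replicate 2 they covered 10820 bp (5.43%), against 7.22 and 13.4%. Odorant receptor spans were covered to 0.896 and 3.34%, and gustatory receptor spans to 1.93 and 7.18%. Without the receptor genes whose spans overlap a gene outside the set, the cover was 1.3 and 4.04%.

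By chromosome arm, the receptor count was 1 of 14 on X (7.14%, against 28.3% of all X genes), 3 of 27 on 2L (11.1%, against 48.7%) and 5 of 28 on 2R (17.9%, against 56.8%). It was 6 of 22 on 3L (27.3%, against 55.2%) and 6 of 28 on 3R (21.4%, against 54.5%). On the autosomal arms together 20 receptor genes were reached, against 53.9% of all autosomal genes. Without the added 500 bp, 11 receptor genes were reached in both replicates, against 39.7% of all genes, so that 10 of the 21 were reached only at their flanks in at least 1 replicate.

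Private peaks in both replicates were found at 8 receptor genes (6.72%), 2 odorant and 6 gustatory. Under the stricter rule that a peak reaches no other protein-coding window at all, 6 receptor genes remained, against 23.4% of all genes. Gr64b and Gr64c dropped out because they share a peak. Replicate 1 alone gave 9 private cases and replicate 2 alone 20, against 25.8 and 40.5% of all genes under the stricter rule. For genes of 1300 to 1775 bp the count of private cases was 1 of 59, against 9.68%.

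Or67a, which encodes an odorant receptor of antennal neurons, had the highest private peaks. On the dm6 build, to which all coordinates here refer, its peak lay on 3L at 9528694 to 9529332 in replicate 1, with a fold enrichment of 3.64 and 53 fragments, and at 9528977 to 9529258 in replicate 2, with a fold of 3.63 and 101 fragments. These folds stood at percentiles of 95.2 and 99 of their lists. The summits lay 58 bp outside and 34 bp inside the lower-coordinate end of the gene (3L, 9529067 to 9531386), and the next gene outside the receptor set, CG33700, was 3523 bp away. No other peak lay within 10 kb of Or67a in replicate 1, and 1 other did in replicate 2.

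Or43a, an odorant receptor known to respond to benzaldehyde and related odorants, lay on 2R at 7232840 to 7234913. Its peak spanned 7232683 to 7232825 in replicate 1 (fold 2.77, 40 fragments) and 7232626 to 7232828 in replicate 2 (fold 2.60, 72 fragments). Both summits lay just outside the lower-coordinate end, 53 and 144 bp from it. The nearest gene outside the set, Adk3, was 8111 bp away. The annotation used lists spans without strand, transcripts or exons, so that neither end of a gene could be called its promoter and exons could not be told from introns.

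At Gr28b, which is known from warmth and light sensing, the private peaks lay inside the gene. On 2L, the peak at 7456246 to 7456458 had a fold of 2.56 in replicate 1, and that at 7456244 to 7456515 had a fold of 2.37 in replicate 2. Their summits were 6 bp apart, 1562 and 1556 bp from the lower-coordinate end. Replicate 2 listed another private peak in the gene at 7458109 to 7458754, with a fold of 2.26. The adjacent Gr28a, a receptor implicated in the taste of ribonucleosides by larvae, had a private peak in replicate 2 (fold 2.37) and none in replicate 1.

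The sugar receptor genes Gr64b and Gr64c share 1 annotated span on 3L, 4028605 to 4032032, and cannot be told apart in a peak list. Their peak at 4029511 to 4029707 in replicate 1 had a fold of 2.56, and the overlapping peak at 4029445 to 4029701 in replicate 2 a fold of 2.23. Replicate 2 also listed a peak at 4030872 to 4031201 (fold 1.84). Within the run of 6 Gr64 genes, Gr64d and Gr64e had a private peak in replicate 2 alone (fold 2.15 for their common peak), and Gr64a and Gr64f had none.

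Gr39b, on 2L at 21367908 to 21369706, had a private peak in its interior and another at its lower-coordinate side. The interior peak, at 21368914 to 21369145 in replicate 1 and 21368986 to 21369303 in replicate 2, had folds of 2.56 and 2.45. The outer peak, with folds of 3.71 and 2.45, also reached dtr. Its summit lay 392 bp from Gr39b and 228 bp from an end of dtr in replicate 1, and 441 and 179 bp in replicate 2. Gr28b, Gr39b and Gr64b/c thus had the same fold and the same 37 fragments over a background of 13.8 in replicate 1, against a smallest listed pileup of 28 at that background.

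Gr93a, a receptor needed for the bitter response to caffeine, ranked low by fold and high by fragments. Its peak on 3R, at 21832358 to 21832713 in replicate 1 and 21832360 to 21832674 in replicate 2, crossed the lower-coordinate end of the gene (21832503 to 21834013). The fold was 1.97 in replicate 1, at a percentile of 8.91, and 2.27 in replicate 2, at a percentile of 69.1. The pileups of 112 and 121 fragments stood at percentiles of 99.1 and 96.8 of the same lists. The caller's background at the peak was 56.4 and 52.7 fragments, above the most frequent 13.8 and 27.1, and 7 peaks lay within 10 kb of the gene in each replicate. The part of the raised background in the low fold was not tested.

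Gr93b, the next Gr93 gene on the arm, had an interior peak at 21842859 to 21843053 in replicate 1 (fold 1.98, 73 fragments) and at 21842930 to 21843053 in replicate 2 (fold 2.09, 92 fragments). Its local background was raised as well, at 36.3 and 43.5 fragments. The next genes of this run, Gr93c and Gr93d, had no peak in either list. Over the 8 genes, the peaks of Or43a, Or67a and Gr93a lay at the lower-coordinate end, and those of Gr28b, Gr39b, Gr64b/c and Gr93b in the gene interior.

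**Figure D2:**
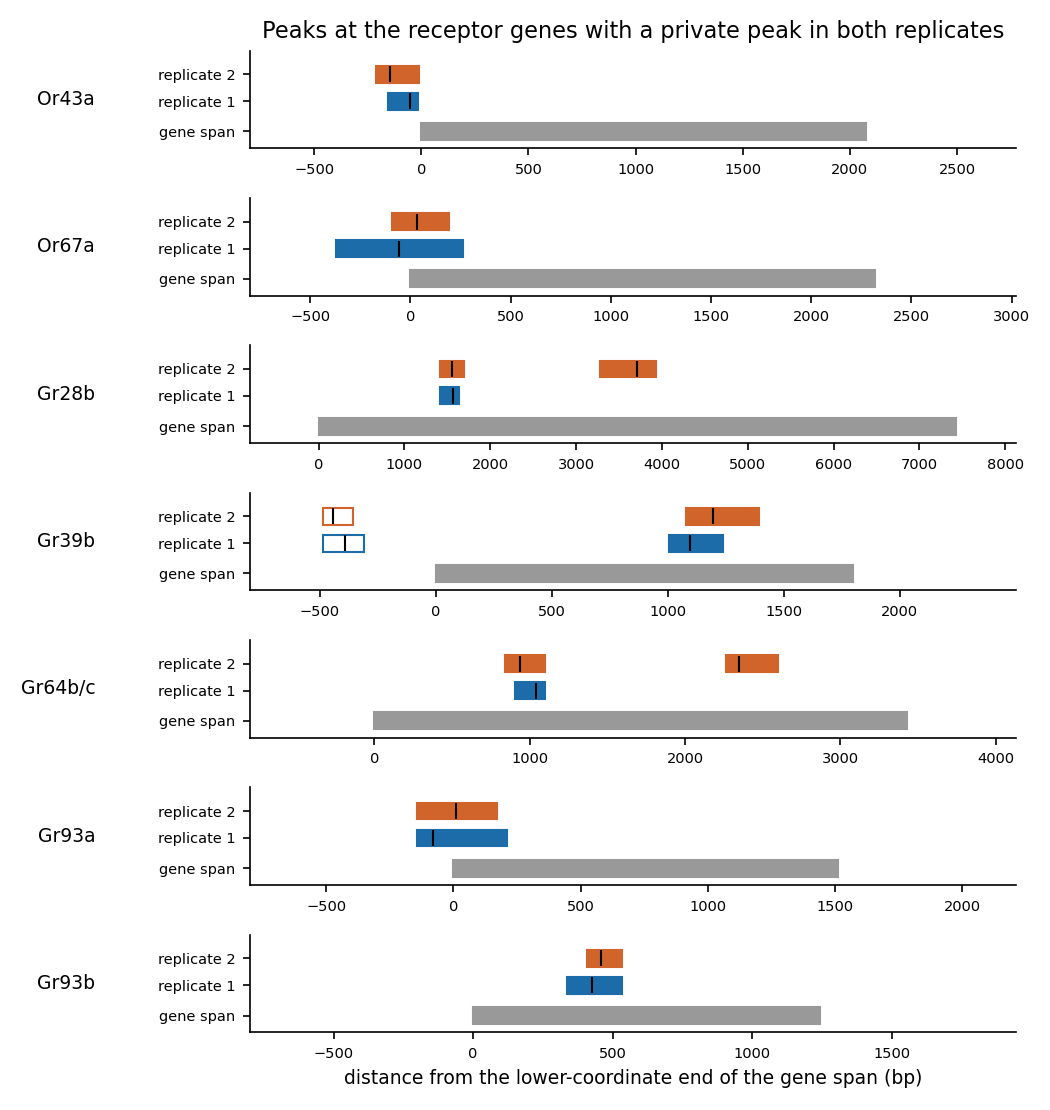
Positions of peaks in bp from the lower-coordinate end of the gene span (x axis, a separate scale per gene) at the receptor genes with a private peak in both replicates, with gene spans in grey, replicate 1 in blue, replicate 2 in orange, filled boxes for private peaks, open boxes for peaks that also reach another gene, and black ticks at summits. Peaks of Or43a, Or67a and Gr93a lie at the lower-coordinate end, those of Gr28b, Gr64b/c and Gr93b inside the span, and Gr39b has both an interior private peak and an outer peak shared with dtr.

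At the other 13 receptor genes reached in both replicates, the listed peaks also reached a gene outside the set in at least 1 replicate. The highest fold was at Gr63a, which forms the carbon dioxide receptor with Gr21a. Its peak on 3L at 3896840 to 3897433 had a fold of 3.98 in replicate 1, and that at 3896724 to 3897437 a fold of 2.56 in replicate 2. The summits were 367 and 420 bp from Gr63a, and 70 and 123 bp from the nearest end of Lamtor4 or Ccz1. In its interior, Gr63a had a private peak in replicate 2 (fold 1.88) and none in replicate 1.

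Gr61a, a sugar receptor gene, had a peak of 1444 bp with a fold of 3.34 in replicate 1 and narrower peaks of 2.22 and 2.31 in replicate 2, all of which also reached JMJD5. Its replicate 1 summit lay 209 bp outside Gr61a and 118 bp from an end of JMJD5. JMJD5 itself is 91 bp from Gr61a, so that this summit fell inside JMJD5. Gr5a, the trehalose receptor gene on X, had folds of 2.45 and 2.38 from peaks that also reached CG42449. It was the receptor gene on X that both replicates reached.

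Gr39a, which is known from male courtship, lies within Mondo, and its top peak had folds of 2.90 and 2.95 with summits 6 bp apart. The summit was 5688 and 5682 bp into Gr39a and over 10 kb from both ends of Mondo (10344 and 10338 bp). Gr77a lies within CG13252, and its peak of 2.75 in replicate 1 overlapped one of 1.88 in replicate 2, beside a higher one of 1.92. Or83a lies within CG1172 (2.53 and 1.99) and Gr94a within p53 (1.86 and 1.54). The peaks of Gr94a lay on opposite sides of the gene in the replicates and did not overlap.

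At Or47a, a receptor of larval and adult olfactory neurons, the peak had folds of 3.17 and 3.30 and also reached the cuticle protein gene Cpr47Ea. The spans of Or47a and Cpr47Ea overlap. The summit lay 398 and 405 bp outside Or47a, and 560 and 567 bp from the nearest end of Cpr47Ea. A distance to an end does not tell whether the summit lay inside Cpr47Ea. Or46a, a receptor of the maxillary palp, had a peak of 2.72 and 2.31 that also reached CG18011. Its interior peak (2.13 and 2.03, summits 1 bp apart) was private in replicate 1, whereas the wider peak of replicate 2 also reached CG12917.

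At Or43b, folds of 2.47 and 2.27 came from a peak reaching Cul1 and Kdm4A. At Or85f they were 2.67 and 1.95, from a peak reaching CG34117 and RpL34b, a ribosomal protein gene. The peak at Gr59f, with 2.80 and 2.36, also reached AIMP3 and wmd. None of these 3 peaks was private in either list. Gr97a was reached on opposite sides, by a peak shared with Tsp97E in replicate 1 (2.39) and by one shared with CG5521 in replicate 2 (1.94). Gr94a and Gr97a apart, the replicates' peaks overlapped at 19 of the 21 genes (90.5%), against 93.8% of all genes reached in both replicates. Of all 119 receptor genes these 19 are 16%, against 46.8% of all protein-coding genes.

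Receptor windows held 23 peaks in replicate 1 and 55 in replicate 2. Of these, 65.2 and 65.5% also reached a gene outside the set. With no added window, the mean of these shares was 26.2%. Counting other receptor genes as well, 69.6 and 72.7% of receptor peaks reached at least 2 protein-coding windows. The same was so of 74.7 and 69.7% of the peaks that reach a gene of 1300 to 1775 bp, and of 27.3 and 24.8% of all peaks that reach a coding window. The receptor share thus lay below that of genes of their length in replicate 1 and above it in replicate 2. The summit of a shared peak was nearer to an end of the other gene in 9 of 15 cases in replicate 1 and in 16 of 36 in replicate 2. Only distances to ends were compared, so a summit inside a long host gene can count as nearer to the receptor. At Gr47a, nested in SLO2, they were 583 and 40806 bp in replicate 2. These counts thus do not tell to which gene a peak belongs. Private peaks had a median fold of 2.56 in replicate 1 (8 peaks, range 1.97 to 3.64) and 2.2 in replicate 2 (19 peaks, 1.71 to 3.63). Shared peaks had 2.72 (15 peaks, 1.86 to 3.98) and 2.10 (36 peaks, 1.54 to 3.30). The median height of receptor peaks stood at percentiles of 61.1 and 58.8, and that of all peaks reaching a coding gene at 49.8 and 49.1. Their median widths were 322 and 274 bp, against 284 and 256 bp. Over the full lists, the mean of the 2 receptor medians was a percentile of 59.9. With an equal number of top peaks from each list, ranked again among themselves, it was 36.4. That rank is within the higher peaks only, so that it cannot be compared with 59.9.

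Replicate 2 reached 21 receptor genes that replicate 1 did not, and replicate 1 reached 1 that replicate 2 did not, Gr98d (fold 2.50, shared with Klp98A). Of all protein-coding genes, 70.6% were reached in replicate 2, 52.6% in replicate 1 and 49.9% in both. The longer list of replicate 2 thus added genes outside the receptor set too. The highest in replicate 2 alone was Or45a, nested in CG13739 and CG13954, at 2.70. It was followed by Or49b at 2.45 (shared with Cyp9h1), Gr28a at 2.37, Gr66a at 2.34, Or2a at 2.31 (shared with crn), Gr58c at 2.30 (shared with CG9304) and Gr85a at 2.28 (shared with Glut4EF). Gr66a marks bitter taste neurons and had a private interior peak, while the nearest peak of replicate 1 was 687 bp from the gene. Over all genes, the stricter rule of private peaks gave 40.5% in replicate 2, 25.8% in replicate 1 and 23.4% in both. Private peaks in replicate 2 alone were listed at 12 receptor genes. Among these were Or82a (2.2), Gr43a (2.13), the fructose receptor gene, Or33c (1.88), Gr89a (1.81), Gr59e and Gr59f (1.72 for a common peak) and Or65a (1.71).

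By function, sugar receptor genes were reached in both replicates in 4 of 9 cases (Gr5a, Gr61a, Gr64b and Gr64c), and 7 of 9 by replicate 2. Gr64b and Gr64c share the same peaks, and Gr64d and Gr64e a common peak in replicate 2, so that these cases are not separate. The peaks of Gr5a and Gr61a also reached genes outside the set. The sugar receptor genes had a median span of 2293 bp, against 1444 bp for all receptor genes. Of 12 bitter and aversive taste receptor genes, 2 were reached in both, Gr39a and Gr93a, and 7 by replicate 2. No peak in either list reached Gr8a, Gr22e, Gr33a, Gr59c or Gr98b. Gr33a is a co-receptor required for the response to many bitter compounds. Of the pheromone taste genes, Gr39a was reached in both replicates and Gr32a in replicate 2 (fold 2.23, shared with CG6230), while Gr33a and Gr68a had no peak. Gr21a, the partner of Gr63a in carbon dioxide sensing, had none, and its nearest peaks were 28742 and 18459 bp away.

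Receptors of smell had fewer. Of 4 pheromone receptor genes, Or47b, Or67d and Or88a had no peak, and Or65a had the peak of replicate 2 named above. Of 24 receptor genes of larval smell, 20 had no peak and 2 were reached in both replicates, Or47a and Or83a. Of 7 maxillary palp genes, Or46a was reached in both, Or33c and Or71a in replicate 2 alone, and Or42a, Or59c, Or85d and Or85e in neither. All these lists were small and chosen with earlier results of these data known, and their counts are descriptions. Counts for both replicates stand against 49.9% of all genes, and those for replicate 2 against 70.6%. Genes without a peak in either list stand against 73.3% of all genes reached in at least 1 list.

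Many receptor genes lie in tandem runs, and most runs held no peak. With less than 5 kb between neighbours, 50 receptor genes formed 18 runs and 69 stood alone. Both replicates reached 5 of the 50 and 16 of the 69, against 49.9% of all genes. Genes in runs and genes alone were not matched for span length, and all genes were not split in this way. The run of Gr22a to Gr22e (2L, 1784062 to 1794917) had no peak in either list, and its genes were 31924 to 37003 bp from the nearest peak of either list. No peak lay in the run of Gr36a, Gr36b and Gr36c (2L, 17176618 to 17181632), at least 64296 bp from the nearest. Also without a peak were Or22a and Or22b, Or42a and Or42b, Gr59a and Gr59b, Gr59c and Gr59d, and Or59b and Or59c. So were Or85b and Or85c, Or94a and Or94b, and the run of Gr10b, Gr10a and Or10a, the last 2 of which share 1 annotated span. Some of these runs lay much nearer to a peak, with Or42b at 1204 bp in replicate 2. Or35a, a receptor of larval and adult olfactory neurons, was the farthest from a peak in replicate 2, at 83773 bp, and Gr36a in replicate 1, at 197768 bp. Or19a and Or19b, also without a peak, are near-identical copies in which the assignment of reads is uncertain.

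The distance to the nearest peak described all members, reached or not. Its median was 6506 bp for odorant and 2633 bp for gustatory receptor genes in replicate 1, against 357 bp for all genes and 733 bp for genes of 1300 to 1775 bp. In replicate 2 it was 2030 and 903 bp, against 0 bp for both comparison sets. Within 5000 bp in replicate 1, a peak lay near 21 of 59 odorant (35.6%) and 39 of 60 gustatory receptor genes (65%), against 79.1% of all genes. Within 10 kb no peak was listed at 37 receptor genes in replicate 1 and at 28 in replicate 2. A peak lay within that distance of 69.5 and 83.1% of odorant and 68.3 and 70% of gustatory receptor genes. For all genes these shares were 86 and 92%.

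**Figure D3:**
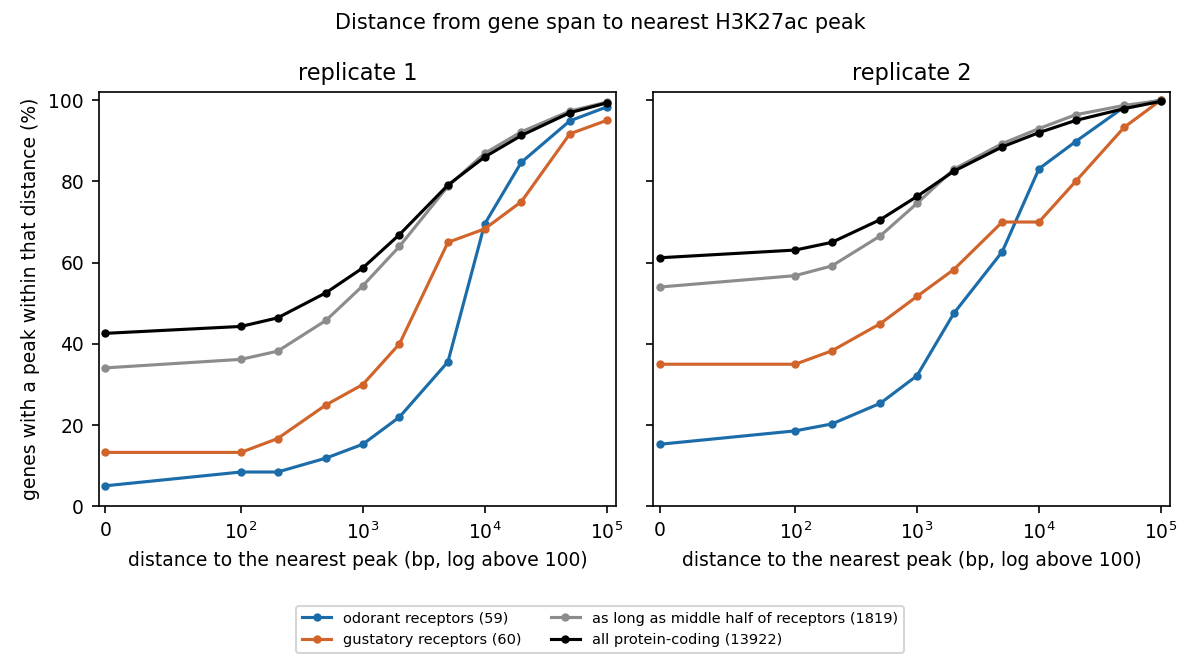
Percentage of genes with an H3K27ac peak (y axis) within a given distance of the gene span (x axis, bp, logarithmic above 100), in replicate 1 (left) and replicate 2 (right), for odorant receptor genes (blue), gustatory receptor genes (orange), genes of 1300 to 1775 bp (grey) and all protein-coding genes (black). At 1000 bp in replicate 1 the values are 15.3, 30, 54.3 and 58.7%, and both receptor curves stay below the other curves up to 20000 bp in both replicates.

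Of 26 other genes listed for chemosensation, regulators among them, 12 were reached in both replicates, 14 in replicate 1 and 17 in replicate 2. The 12 are 46.2%, close to the 49.9% of all genes. That is below the 54.5% of genes over 2000 and up to 4000 bp, where the median span of the 26, 3045 bp, lies. The 12 include elav, counted above among the neuronal genes, and the regulators Poxn, pdm3 and fru. Their spans run from 8363 bp (Poxn) to 131314 bp (fru), so that the median does not match the list for length. Orco, the common co-receptor of the odorant receptors, had a top fold of 2.31 in replicate 1 and 2.42 in replicate 2. The Orco peaks of the 2 lists did not overlap, so that no single position carried the mark in both lists. Of the ionotropic co-receptors, Ir25a had top folds of 3.17 and 2.63, with the higher replicate 1 peak also reaching Fnta, Ir8a had 2.02 in replicate 1 and no peak in replicate 2, and Ir76b had none.

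Of 8 odorant-binding protein genes listed, 3 were reached in both replicates (37.5%), each with a top peak in replicate 1 that also reached a neighbour. These were lush (3.33 and 2.17, with CG9372), Os-C (3.26 and 2.51, with CD98hc and Sfp84E) and Obp57d (3.10 and 3.10, with Cpr57A, BORCS7 and CG13430). Obp49a and Obp57e were reached in replicate 2 alone (2.39 and 1.87), and Obp83b, Obp19b and Obp56g in neither list. The channel genes ppk11 (2.29 and 1.83), ppk25 (2.97 and 2.06) and ppk29 (1.86 and 2.03) were reached in both replicates, also with a shared top peak in replicate 1. In the same list ppk28 was reached in replicate 1 alone (2.43), and ppk19 and ppk23, a gene of pheromone taste, had no peak.

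Among regulators, Poxn, the selector gene of taste bristles, had top folds of 2.77 and 3.09, with the replicate 1 peak also reaching tun. Long regulator genes held many peaks, with 8 and 13 at pdm3 (top folds of 4.20 and 3.41) and 21 and 35 at fru (3.39 and 5.19). In contrast acj6, a regulator of odorant receptor choice, had no peak in either list. Ionotropic receptor and pickpocket genes, another chemosensory set, were reached in both replicates in 26 of 89 cases (29.2%), with a median span of 2106 bp. The difference from the receptor share of 17.6% was not tested.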

How the data were processed

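H3K27ac CUT&RUN was measured in 2 replicates of male pupal wings, which form 1 group. The authors aligned reads with Bowtie2 and called peaks with MACS2 on dm6, per the submitters' processing notes, and no source used here gives versions, caller settings, controls or duplicate treatment. The deposited values per peak are positions with a summit, a fold ratio over the caller's background, −log10 p, −log10 q and a score. Each deposited fold and −log10 p was inverted to the fragments at the summit and the expected background under a Poisson model, which succeeded for 14424 of 14425 and 26357 of 26358 peaks within 0.001 units. Weaker regions are left out of the lists (smallest −log10 q 2.01 and 2.04), so an unreached gene has no measured level. The deposited −log10 p-values and q-values served for this and for 1 alternative only.

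Genes came from the RefSeq table of Release 6 (dm6), and all 119 receptor symbols and all genes of the other lists were matched, 1 of the latter by a synonym (Os-E as Obp83b). Overlaps were computed with Python 3.11.15, numpy and pandas, and tested on simulated data. Percentiles are ranks within a list. Genes are not replicates, so no test was run, and counts stand beside those of all coding genes. Members and lists were chosen with earlier results of these data known. Named were all members reached in both lists, the 8 highest reached in 1 list, functional-list members without peaks, and chemosensory genes reached in both. The labels name no molecular identifiers, so fragments may not be independent molecules.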

Additional observations from a re-analysis of the deposited data

Results flagged for a closer look

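Peaks outside the 6 arms were not used in any comparison. There were 36 in replicate 1 and 62 in replicate 2, of which 6 and 7 lay on a separate contig named for the D2 construct. They were singled out because they are signal that no comparison of receptor genes uses. No peak in either replicate reached the window of the pseudogene Or98P, which stands outside the protein-coding set.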

How the results depend on the processing

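Over 15 alternatives giving 73 values, 45 values stayed close to those reported and 28 moved. Counts moved by over 1.5 times and the other values by more than the SD of the replicates. For the shares and percentiles, leaving out 1 of 2 replicates always stays within that SD, so those values could not move. A share of 65% against 65.3% counted as moved because the SD was 0.168. The tally is therefore no measure of stability. Replicate 2 set the widest range. Leaving out each replicate, receptor genes reached numbered 22 to 42, odorant ones 7 to 15, gustatory ones 15 to 27 and privately reached ones 9 to 20, with the higher value from replicate 2 alone. A peak in either replicate gave 43 (36.1%, against 73.3% of all genes), 15, 28 and 21. With no added window these were 11, 3 and 8 (all genes 39.7%), and with the 7230 top peaks per list 9, 3, 6 and 4 (all genes 26.5%). The share of receptor peaks that also reach another gene, 65.3% ± 0.168 (SD, n = 2), was 26.2, 50.2 and 69.4% with windows of 0, 250 and 1000 bp. It was 65% with a −log10 q of at least 5, 64.7% with equal top peaks, 57.1% by summits, 60.8% at gene ends and 63.5% on autosomes. It was 68.4% when all 17684 annotated genes ended privacy. When only protein-coding genes did, by their spans without the added 500 bp, it was 46.6%. The mean of the median height percentiles, 59.9 ± 1.62 (SD, n = 2), was 53.4 with the −log10 q limit, 36.4 with equal top peaks and 65.2 at gene ends. With that limit and with equal top peaks, ranks were taken again among the peaks kept, so those values are on another scale. The causes were not tested. In the settings with a count of all genes, that share stayed above the receptor share. No paired analysis was possible because there is 1 group. Library depth is not given, and its part in the difference between the lists was not tested.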
